A study of Mus musculus with 1183 samples.

Results

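The measurements concern 10 genes of fat handling, Cd36, Lpl, Fabp1, Fabp4, Fabp5, Plin2, Cidec, Lipa, Abca1 and Abcg1, in immune cells of the newborn mouse lung. They were chosen by symbol, with earlier results of these data known, and all 10 occur among the 18072 genes of the count table. The table holds 1183 cells of distal lung from 2 mice at postnatal day 7, both treated with hyperoxia, a raised oxygen level: 598 cells from 1 female and 585 from 1 male. Mice kept in room air were not analysed here, so nothing below estimates an effect of oxygen. Strain and oxygen level are not given in the sources used here. Cells were sorted into plates, all but 10 of them through a gate on CD45, which marks leukocytes, and sequenced after Tn5 tagging. The labels place them in 16 subtypes, among them 5 classes of macrophage or monocyte named Mac I to Mac V. The animal is the replicate, and the counts of its cells in a subtype were summed.

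Alveolar macrophages take up and break down surfactant, the film of lipid and protein that lines the air spaces, and they are known for a high content of lipid-handling proteins. Fatty acids enter through CD36 or after lipoprotein lipase has cut them from triglycerides, and FABP proteins carry them through the cytosol. Surplus is stored in droplets coated by perilipins, cholesterol esters are hydrolysed in lysosomes, and cholesterol leaves through the ABCA1 and ABCG1 transporters. The nuclear receptor PPAR gamma, which binds DNA with RXR at repeats spaced by a base (DR1), switches on several genes of uptake and storage, and LXR, which binds with RXR at repeats spaced by 4 bases (DR4), switches on the transporters.

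Of these genes, 9 had their highest level in the Mac III class and Abca1 did not. The proximal promoters are shown beside this, and whether their letters bear on it was not tested. RefSeq promoter sequences on mouse build GRCm38.p6 were matched for 6 of the 10 members: Abca1, Plin2, Cd36, Fabp1, Cidec and Lipa. The 250 bases before each annotated start were searched on both strands for the letters AGGTCANAGGTCA, a DR1 repeat, and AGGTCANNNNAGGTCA, a DR4 repeat. A DR1 and a DR4 match may overlap where they share a hexamer. Below, capitals mark the best DR1 match in the first 3 and the best DR4 match in Abca1, each written 5′ to 3′ on the strand of the gene.
Fabp1, chr6:71199629-71199878, plus strand: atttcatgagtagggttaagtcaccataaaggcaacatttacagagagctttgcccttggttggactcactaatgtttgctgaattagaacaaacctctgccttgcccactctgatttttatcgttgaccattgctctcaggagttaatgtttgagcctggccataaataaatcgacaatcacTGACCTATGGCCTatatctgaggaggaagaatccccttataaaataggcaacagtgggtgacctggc
Plin2, chr4:86670060-86670309, minus strand: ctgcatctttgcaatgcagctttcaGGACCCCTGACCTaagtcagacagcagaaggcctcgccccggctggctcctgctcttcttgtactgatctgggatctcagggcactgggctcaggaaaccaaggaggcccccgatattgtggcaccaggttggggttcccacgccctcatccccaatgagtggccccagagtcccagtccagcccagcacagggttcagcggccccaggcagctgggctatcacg
Cd36, chr5:17835897-17836146, minus strand: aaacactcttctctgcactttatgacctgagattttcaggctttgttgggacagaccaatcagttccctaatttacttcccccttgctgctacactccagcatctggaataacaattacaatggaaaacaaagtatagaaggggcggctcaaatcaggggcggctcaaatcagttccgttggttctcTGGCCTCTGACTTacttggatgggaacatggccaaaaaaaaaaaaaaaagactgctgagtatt
Abca1, chr4:53159896-53160145, minus strand: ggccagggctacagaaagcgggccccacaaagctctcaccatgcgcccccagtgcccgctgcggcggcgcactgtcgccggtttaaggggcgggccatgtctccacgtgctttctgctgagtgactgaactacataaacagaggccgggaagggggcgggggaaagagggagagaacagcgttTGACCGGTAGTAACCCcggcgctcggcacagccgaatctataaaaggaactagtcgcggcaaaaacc
The Fabp1 match began 67 bases before the start and differed from the motif at 1 base, as few as in 0.484% of 32851 promoters of the same length. The Plin2 and Cd36 matches differed at 2 bases, as few as in 3.24% of promoters, and that of Cd36 began 63 bases before the start. The other members with a promoter had weaker DR1 matches: 3 and 4 bases differed in the promoters of Cidec, as few as in 21.3% and 74.5% of promoters, 4 in Lipa and 5 in Abca1. The best DR4 match differed at 3 bases in both Abca1, 67 bases before the start, and Fabp1, as few as in 18.5% of promoters, and at 4 or 5 bases in the rest. The single hexamer AGGTCA and the letters CACGTG, an E-box, were searched as well. Fabp1, Plin2 and Cd36 held the hexamer exactly, as 14.02% of promoters did. Abca1 held the E-box exactly, as 6.02% of promoters did. These are matches of letters only, and the count data do not measure binding.

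The labelled class was checked against 10 alveolar macrophage markers, of which 9 are in the table. Ear1, Car4, Krt79 and Atp6v0d2 were higher in Mac III, in both animals, than in any other subtype: Car4 stood at 1236 and 982 CPM (reads of a gene per 1000000 reads of the summed library) in the female and the male, against at most 105.3 elsewhere. Chil3 was higher in neutrophils, Ear2, Siglecf and Itgax in Mac II, and Mrc1 in Mac IV. The 9 markers summed to 5882 and 5294 CPM in Mac III, 4304 and 4126 in Mac II, 1552 and 1730 in Mac IV, and 903 and 775 in Mac V. In Mac II, Ear2 alone gave 2526 and 2815 CPM of that sum, and Krt79 stood at 0 and 0.0755 CPM against 89.8 and 74.1 in Mac III. The interstitial macrophage marker C1qb had 6536 and 8068 CPM in Mac IV, 865 and 752 in Mac II, and 4.94 and 0.497 in Mac III. Cx3cr1 had 1041 and 838 CPM in Mac IV, 235.3 and 97.2 in Mac II, and 0.0143 and 0.938 in Mac III. Mac V held the monocyte markers at 4830 and 6729 CPM. Epithelial markers summed to 94.6 and 114.2 CPM in Mac III, of which Cdh1 gave 85.1 and 97.2, and to between 0.0652 and 64.6 CPM in the other 3 classes. The surfactant gene Sftpc had 8.27 and 15.7 CPM in Mac III, 8.25 and 16.6 in Mac II and 14.3 and 57.99 in Mac IV. The part of epithelial RNA in the results was not tested. Mac III made up 32.97% of all cells. Mac IV had 63 and 79 cells, Mac V 66 and 45, and Mac II 27 and 20. Summed libraries held 6024429 to 235566546 reads, so the Mac III values rest on the largest totals.

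Of the 10 genes, 9 had their highest mean level in Mac III. The share of a gene's reads that fell in Mac III ran from 64.6% for Plin2 to 99.96% for Fabp1 among these 9, while Mac III cells held 30.8% of all reads. Abca1 was the exception, with 19.2% of its reads in Mac III and its highest level in Mac IV. For every gene but Fabp4 the animals' range in the highest subtype did not overlap that of the next. The shares of all genes that peak in Mac III, or whose highest subtype lies apart from the next, were not computed. These counts therefore describe the members only.

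**Figure D1:**
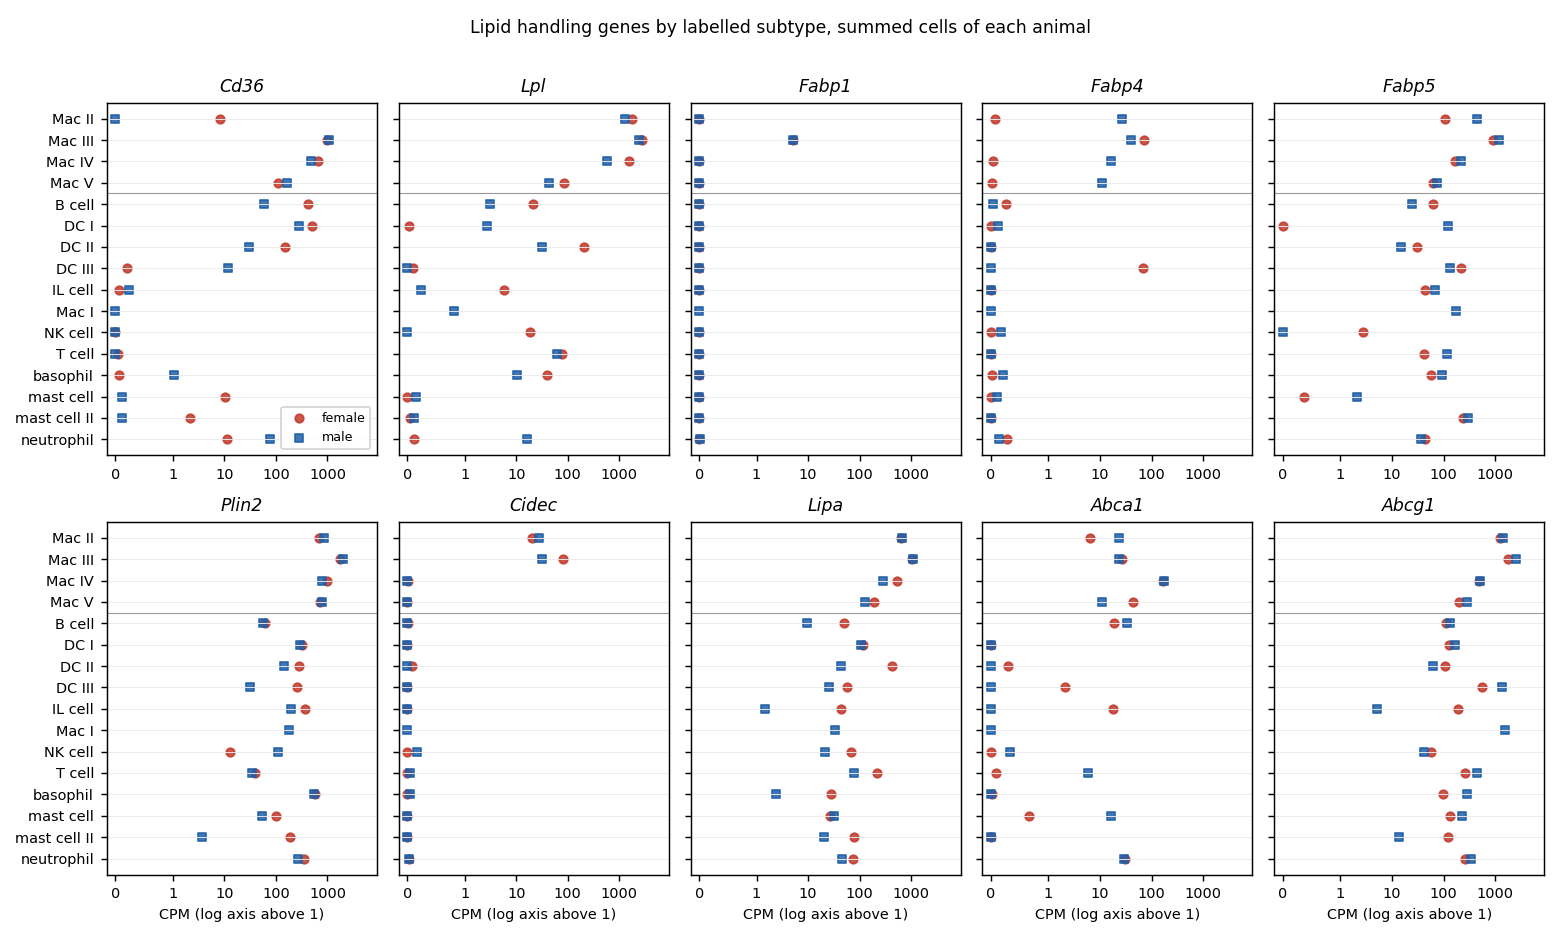
Level of each gene in CPM (x axis, logarithmic above 1) in the summed cells of each labelled subtype (y axis), with a circle for the female and a square for the male; Mac I is 1 cell of the male. Mac III lies farthest right for 9 genes, and Abca1 is highest in Mac IV at 166.4 and 172.7 CPM.

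Cd36, the scavenger receptor that takes up fatty acids and oxidised lipoproteins, stood at 976 CPM in the female and 1060 in the male in Mac III. Mac IV followed at 653 and 469 CPM and DC I, a dendritic cell class, at 500.1 and 284.7, ranges that overlapped. B cells reached 412 and 58.1 CPM and Mac V 110.8 and 161.1 CPM. Mac II, the class nearest to Mac III in the sum of alveolar markers, held almost none: 8.16 CPM in the female, 89.9% of it from 1 cell, and 0 reads in the male. In Mac II of the female, 1 cell held at least 2 of 6 endothelial markers at 50 CPM or more, and it had Cd36 at 702 CPM. Without it the level of the female was 0.831 CPM. Of the members with reads in both classes, Cd36 had the largest fitted difference between Mac III and Mac II.

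Lpl, the lipase that frees fatty acids from triglycerides outside the cell, had 2685 and 2425 CPM in Mac III. Mac II came next at 1766 and 1296 CPM, and Mac IV at 1547 and 583 CPM overlapped Mac II. This overlap rested on plate 1 of the female, which came from another sequencing run than the other CD45 plates. In Mac IV that plate had 2519 CPM, plate 2 of the female 651, and the plates of the male 786 and 461. In Mac II the CD45 plates ran from 1107 to 1775 CPM. Every other subtype was below 210 CPM, and Mac V had 84.3 and 43.5 CPM. Where lymphoid cells and basophils showed Lpl, few cells carried it: 1 cell held 99.9% of the Lpl reads of the T cells of the male and 99.8% of those of the basophils of the female.

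The 3 fatty acid binding proteins differed. Fabp5, the form found in skin and macrophages, had 909 and 1197 CPM in Mac III, against 105.01 and 446 in Mac II, 236.5 and 293.7 in mast cell II, 164.9 and 220.9 in Mac IV, and 63.7 and 75.5 in Mac V. In Mac II of the male, 1 of 20 cells held 51.4% of the Fabp5 reads, and the level without it was 235.01 CPM. Fabp4, the adipocyte form, had 71.5 and 39.6 CPM in Mac III. Its next value, 66.95 CPM in DC III of the female, came wholly from 1 of 11 cells, while DC III of the male had 0 reads. In Mac II, Mac IV and Mac V of the male, at 26.4, 16.5 and 11.2 CPM, at least 91.1% of the Fabp4 reads came from 1 cell each. The females of these 3 classes had at most 0.0686 CPM. Fabp1, the liver form, had 5.02 and 4.99 CPM in Mac III. Outside Mac III it had 1 read in all, in a neutrophil of the male, and 13 subtypes had none.

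Plin2, which coats lipid droplets, had reads in all 15 subtypes. It stood at 1773 and 1985 CPM in Mac III, 983 and 789 in Mac IV, 687 and 874 in Mac II, 732 and 772 in Mac V, and 565 and 545 in basophils. The 3 other macrophage classes overlapped in the order of levels, and Mac V and basophils were apart from each other. In Mac IV, Plin2 had 1324 CPM on plate 1 of the female, 668 on plate 2, and 696 and 850 on the plates of the male. T cells, at 39.6 and 35.1 CPM, were the lowest by the mean of the animals. Cidec, which fuses droplets into larger ones, was found almost wholly in Mac III and Mac II. It had 79.03 and 31.7 CPM in Mac III and 20.3 and 27.8 CPM in Mac II, and no other subtype exceeded 0.166 CPM.

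Lipa, the lysosomal acid lipase that hydrolyses cholesterol esters and triglycerides, had nearly equal levels in the animals in Mac III, 1047 and 1062 CPM. Mac II followed at 635 and 651 CPM, apart from both Mac III and Mac IV, where it had 527 and 278.5 CPM. DC II of the female had 419 CPM, 58.1% of it from 1 of 11 cells, and DC II of the male 44.2 CPM. Mac V had 185.2 and 124.1 CPM.

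The efflux transporters parted. Abcg1, which exports cholesterol to HDL, was highest in Mac III, at 1806 and 2493 CPM, then in Mac II at 1253 and 1440 and in DC III at 563 and 1340. Mac IV had 478 and 519 CPM and Mac V 198.1 and 280.9. Abca1, which loads cholesterol onto lipid-poor apolipoproteins, had 166.4 and 172.7 CPM in Mac IV. Neutrophils followed at 30.2 and 28.8 CPM, Mac V at 43.99 and 11.03, B cells at 18.7 and 33.003, and Mac III at 26.5 and 23.8, each overlapping the next in that order. In B cells of the male, 93.1% of the Abca1 reads came from 1 cell.

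Levels of different genes were compared only per kilobase of exon, with exon lengths of GENCODE M21 (GRCm38), which approximate the lengths behind the counts. Each length joins the exons of all annotated transcripts of a gene, such as 3567 bases for Fabp5 and 10478 for Lpl. A single transcript can be shorter, so the order of the genes below can depend on this choice. Other lengths were not tried. In Mac III, Plin2 had 535 ± 42.7 CPM per kilobase (mean and SD, n = 2 animals). Fabp5 followed at 295.3 ± 56.999, Abcg1 at 294.5 ± 66.6, Cd36 at 283.5 ± 16.6 and Lpl at 243.9 ± 17.5. Lipa stood at 155.5 ± 1.64, Cidec at 29.8 ± 18.03, Fabp4 at 12.4 ± 5.02, Fabp1 at 9.05 ± 0.037 and Abca1 at 2.43 ± 0.186 CPM per kilobase. On this scale Abca1 was the lowest of the 10 in Mac III, while in Mac IV its 16.4 ± 0.432 CPM per kilobase exceeded those of Fabp1, Fabp4 and Cidec.

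Mac III was then set against Mac II, Mac IV and Mac V, and Mac IV against Mac V, with edgeR's quasi-likelihood test on the summed counts and Benjamini-Hochberg adjustment over 15600 genes. The subtype labels probably rest on these same counts, so calls describe labelled classes and are not independent evidence of them. With all 15 subtypes in the fit, 0 of 10 members passed an adjusted p of 0.05 in any of the 4 comparisons. Over all genes that fit called 0.0256% in Mac III against Mac II, 0.263% against Mac IV, 0.442% against Mac V, and 0.167% in Mac IV against Mac V. At an unadjusted p under 0.05 there were 2, 3, 6 and 0 members, of 692, 1231, 1467 and 1660 genes. The spread shared by that fit was wide, with a common biological coefficient of variation of 1.15. With the animal as a replicate block, 0 members were called in each comparison, and 0.0577%, 0.276%, 0.506% and 0.218% of genes. DESeq2 called 1, 1, 2 and 0 members, where it called 2.77%, 3.21%, 6.21% and 6.14% of genes.

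With only the 2 compared subtypes in the edgeR fit, more of the table passed. Against Mac IV, 5 members were called higher in Mac III (Plin2, Fabp5, Fabp1, Cidec and Abcg1) and 1 lower (Abca1), with 5.26% of genes called higher and 6.70% lower. In the pair with Mac V, 7 members passed as higher in Mac III (Plin2, Lpl, Fabp5, Cidec, Abcg1, Lipa and Cd36) and 0 lower, with 3.99% of genes called higher. Against Mac II, 0 members passed, and 0.933% of genes were called. An unadjusted p under 0.05 was found for 7 members there, and for 17.5% of genes. In Mac IV against Mac V, where 8 members were tested, Lpl and Cd36 were called higher in Mac IV, with 2.31% of genes called higher. Whether a member was called thus depended on the libraries in the fit.

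Without a test, the animals' values can be read for overlap. The members were chosen with earlier results of these data known. A difference from the share of all genes below therefore describes the members and is no independent evidence. Both animals' CPM in Mac III lay above both in Mac II for 10 of 10 members, where 30.6% of genes did so. Against Mac IV this held for 9 of 10 members, with 30.4% of genes, and Abca1 lay the other way, as 27.9% of genes did. Against Mac V it held for 9 of 10, with 35.7% of genes, and Abca1 overlapped. In Mac IV against Mac V it held for 7 of 10, with 30.5% of genes. The members' median log2 fold change was 1.23, 1.80, 3.19 and 1.32 in these 4 comparisons, the same where genes with 0 reads were set at their lower bound, and the median of all genes was 0.11, 0.00, 0.14 and 0.07.

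Against Mac II, Cd36 had a log2 fold change of 7.97 ± 2.47 (SE), with an adjusted p of 0.730 in edgeR's quasi-likelihood test and 0.00190 in DESeq2, and from 0.00190 to 1.0 over the alternatives. The other members with reads in both classes differed by 0.67 for Abcg1 to 2.05 for Fabp4 on the log2 scale, each with an SE of at least 0.96. Fabp1 had 0 reads in Mac II. Taking 3 reads over both Mac II libraries as the floor, its level in Mac III was 117.2-fold that floor. This bound covers the counting of reads only, not the sampling of cells. Fabp1 had no read in 91.8% and 95.2% of Mac III cells, and Mac II had 27 and 20 cells.

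Against Mac IV, the log2 fold change was 2.15 ± 1.00 for Abcg1, 2.49 ± 1.62 for Fabp5, 1.45 ± 1.19 for Lipa, 1.33 ± 1.76 for Lpl, 1.14 ± 1.02 for Plin2 and 0.91 ± 1.84 for Cd36. With edgeR's quasi-likelihood test, Abcg1 had an adjusted p of 0.614 with all subtypes in the fit and 0.0115 with only Mac III and Mac IV. Abca1 stood at -2.71 ± 2.30, with adjusted p of 1.0 and 0.00426 by the same edgeR fits. Cidec had 24012 reads in Mac III and 1 read in Mac IV, and its adjusted p was 0.176 in the fit of all subtypes by edgeR's quasi-likelihood test, 0.00338 in the fit of the pair, and 0.00391 in DESeq2. For Fabp1, with 0 reads in Mac IV, the same bound on read counts was 355.997-fold, again without the sampling of cells. In Mac IV, 9 of 63 and 5 of 79 cells held at least 2 of 6 endothelial markers at 50 CPM or more, and those markers summed to 846 and 220.7 CPM, or 44.4 and 71.5 CPM without these cells. Without them, an alternative chosen after seeing the data, Abca1 in Mac IV had 164.1 and 173.7 CPM, Cd36 590 and 465, Lpl 1709 and 555, and Plin2 1056 and 810. Mac III held 0 such cells. Erythroid markers summed to 9.11 and 2403 CPM in Mac IV, and their part was not tested.

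Against Mac V, Lpl differed by 5.26 ± 2.07, Fabp5 by 3.87 ± 1.72, Abcg1 by 3.12 ± 1.04, Cd36 by 2.85 ± 1.95, Lipa by 2.71 ± 1.24 and Plin2 by 1.27 ± 1.02 on the log2 scale. By edgeR's quasi-likelihood test the adjusted p of Abcg1 was 0.290 with all subtypes in the fit and 0.00912 with the pair alone, and DESeq2 gave 0.0302. Cidec and Fabp1 had 0 reads in Mac V, and their bounds on read counts were 2334-fold and 216.4-fold, again without the sampling of cells. In Mac IV against Mac V the largest difference was that of Lpl, 3.94 ± 1.95, with an adjusted p of 0.483 with all subtypes and 0.0257 with the pair alone in edgeR's quasi-likelihood test. Abca1 differed by 2.52 ± 2.29, Cd36 by 1.94 ± 1.89 and Plin2 by 0.13 ± 1.01.

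**Figure D2:**
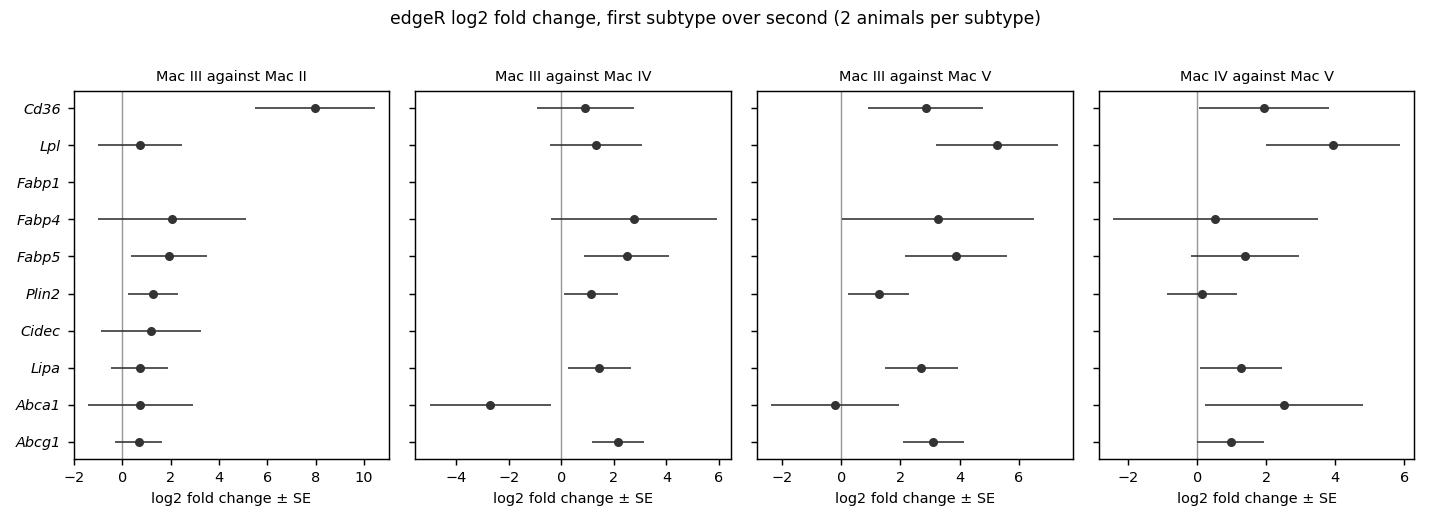
edgeR log2 fold change of each gene (x axis, bars are SE, 2 animals per subtype, all subtypes in the fit) in 4 comparisons; genes with 3 reads or fewer in either subtype are not drawn. Cd36 stands at 7.97 in Mac III against Mac II, and Abca1 at -2.71 is below 0 in Mac III against Mac IV.

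Within Mac III, the genes fell into a common and a sparse set. To compare cells of unequal depth, each was thinned at random to 100000 reads, and a cell with at least 5 reads of a gene, equal to 50 CPM, was counted as positive. Among the cells of the female and the male, 100% and 100% were positive for Plin2 and for Lipa, 99.4% and 100% for Lpl, 98.9% and 100% for Abcg1, 95.6% and 97.6% for Cd36, and 93.4% and 94.2% for Fabp5. Cidec was found in 27.6% (exact 95% interval 21.3 to 34.7) and 18.8% (13.7 to 24.7), Abca1 in 13.8% and 18.8%, Fabp4 in 12.2% and 12.5%, and Fabp1 in 4.42% (1.93 to 8.52) and 1.44% (0.298 to 4.16). The sparse shares depend on the threshold: with at least 1 thinned read they were 34.3% and 29.3% for Cidec, 24.3% and 29.3% for Abca1, 15.5% and 16.8% for Fabp4, and 6.08% and 4.33% for Fabp1. Intervals cover counting error only. In both animals 6 genes were thus near universal and 4 were sparse.

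The same shares in lymphocytes were set beside these. Plin2 was positive in 17.9% and 24% of B cells, Cd36 in 41.03% and 36%, and Abcg1 in 57.7% and 65% of T cells, with median depths of 1131743 and 1471919 reads in B cells, 1399827 and 1052877 in T cells, and 1065415 and 1151124 in Mac III. Cidec, Fabp1 and Fabp4 were positive in 0 of 39 and 0 of 25 B cells, which allows up to 7.69% and 12% when 3 cells are taken as the limit, and up to 9.03% and 13.7% by the exact 95% interval. Neutrophil markers summed to 30.5 and 2238 CPM in B cells, and whether the reads of Cd36, Plin2 and Abcg1 in lymphocytes are their own was not tested. In Mac IV, Abca1 was positive in 57.1% and 69.6% of cells, Cd36 in 77.8% and 87.3%, Lpl in 76.2% and 68.4%, Abcg1 in 63.5% and 43.04%, and Fabp5 in 26.98% and 12.7%. In Mac II, Cd36 was positive in 1 of 27 and 0 of 20 cells, while Lpl was positive in 92.6% and 90% and Abcg1 in 96.3% and 100%.

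**Figure D3:**
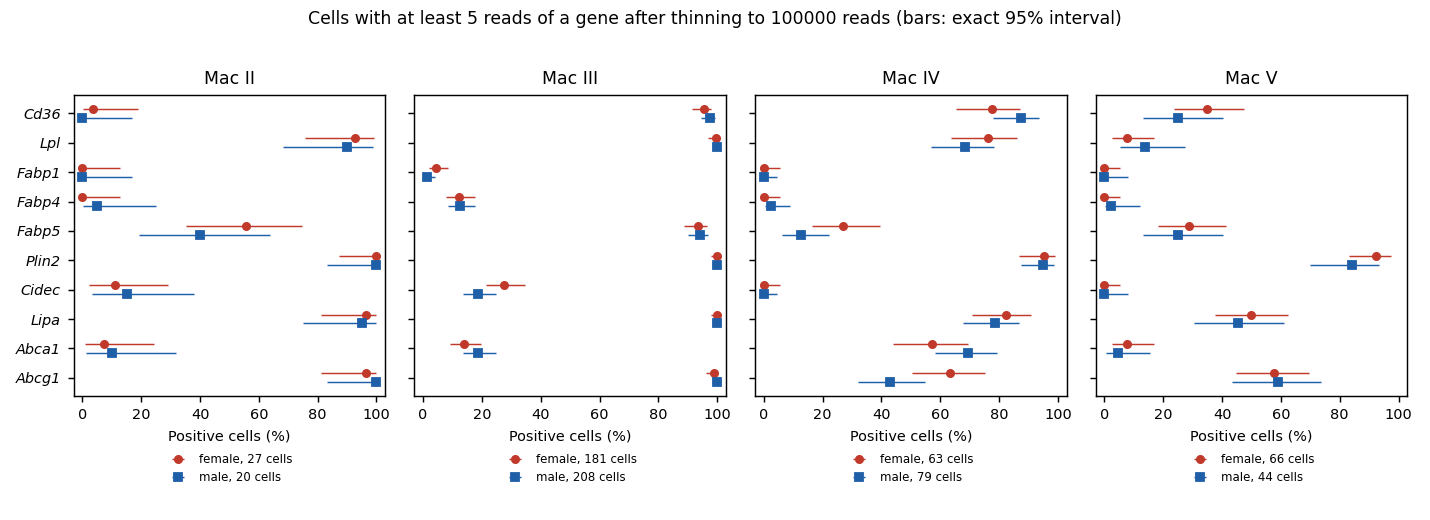
Percentage of cells positive for each gene (x axis, bars are exact 95% intervals) in 4 macrophage classes, circles for the female and squares for the male. In Mac III, 6 genes lie above 93% and 4 below 28%, while Cd36 is at 3.70% and 0% in Mac II.

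Counted per cell, a median of 6 of the 10 members were positive in Mac III in both animals, with a range of 4 to 9 and 4 to 8. At least 6 were positive in 92.3% and 96.6% of Mac III cells, 34.9% and 20.3% of Mac IV cells and 11.1% and 20% of Mac II cells. In the other 12 tested subtypes 0 cells reached 6. Mac II had medians of 5 in the female and 4 in the male, Mac IV of 5 and 5, Mac V of 3 and 2, and neutrophils and T cells of 1.

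The sparse genes were concentrated in few cells. Fabp1 had no read in 91.8% and 95.2% of Mac III cells, and 1 cell of the male, at 1145 CPM, held 56.7% of that animal's Fabp1 reads. The 10% of cells with most reads held 98.4% and 95.2% of the Fabp4 reads, 85.6% and 71.9% of those of Abca1, and 75.9% and 76.4% of those of Cidec. For Plin2 those cells held 29.7% and 28.3%, for Lpl 27.99% and 23.7%, for Lipa 28.3% and 27.5%, and for Fabp5 45.1% and 43.4%. Median cells stood at 2705 and 2349 CPM for Lpl, 1643 and 1724 for Plin2, 1562 and 2002 for Abcg1, 918 and 932 for Lipa, 798 and 842 for Cd36, and 564 and 721 for Fabp5. Fabp5 was the most uneven of the common genes: its quartiles were 235.6 and 1014 CPM in the female and 342.7 and 1550 in the male.

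Pairs of members varied together only weakly from cell to cell. Over the 45 pairs, the median Spearman rho of log2(CPM + 1) was 0.042 in the cells of the female and 0.084 in those of the male, and 27 pairs were positive in both. Cells of an animal share plates and differ in depth, so these are descriptions without a test. The highest were Fabp5 with Lipa, at 0.41 and 0.40, and the transporters Abca1 with Abcg1, at 0.35 and 0.31. Fabp5 with Cd36 followed at 0.24 and 0.40, and the droplet coat Plin2 with Cd36 at 0.32 and 0.24. Cidec ran against the lysosomal lipase Lipa, at -0.12 and -0.19, and against Fabp5, at -0.08 and -0.23. After thinning, Fabp5 with Lipa stood at 0.43 and 0.37, Abca1 with Abcg1 at 0.33 and 0.30, Fabp5 with Cd36 at 0.25 and 0.38, and Plin2 with Cd36 at 0.33 and 0.25. Cidec with Lipa then stood at -0.06 and -0.16, and with Fabp5 at -0.08 and -0.27.

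In Mac III the animals were compared over their CD45 plates, without a test since each sex has 1 animal. Plate 1 of the female came from another sequencing run than the other 3 plates. Plin2 lay between 1637 and 2105 CPM over the 4 plates, Lpl between 2230 and 2839, Lipa between 961 and 1186 and Cd36 between 861 and 1210, with overlapping animals. Cidec stood at 107.2 and 54.2 CPM on the plates of the female and 29.1 and 33.8 on those of the male, so the animals did not overlap, and the widest step was between the runs. Fabp4 had 65.5 and 76.9 CPM in the female against 64.8 and 19.1 in the male. Fabp5, at 726 and 1071 against 1267 and 1140.0, and Abcg1, at 1638 and 1953 against 2039 and 2864, were higher in the male on every plate. Fabp1 ran from 0.953 to 8.29 CPM, with a low and a high plate in each animal.

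**Figure D4:**
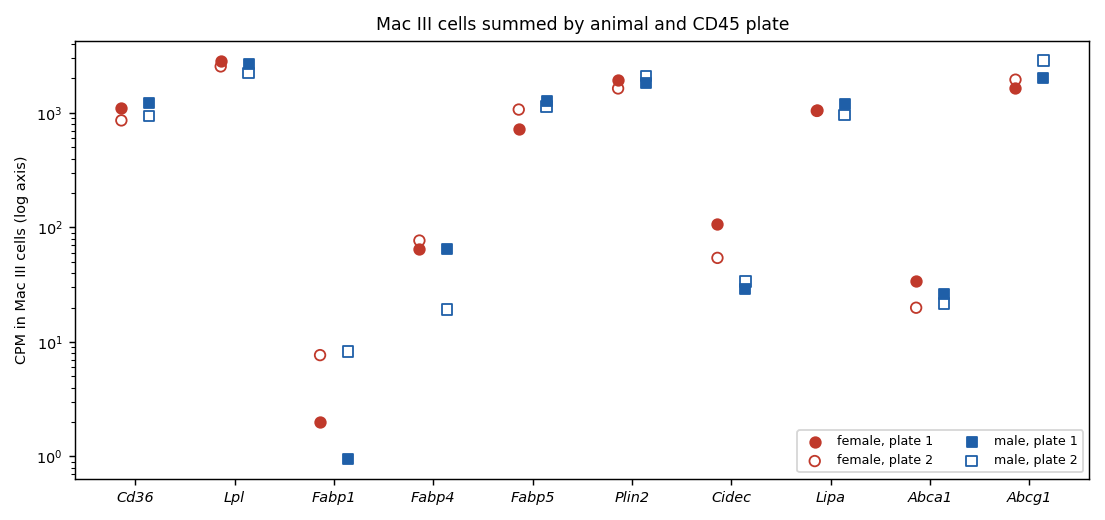
Level of each gene in Mac III cells in CPM (y axis, logarithmic), summed by animal and CD45 plate; circles are the female, squares the male, filled plate 1, open plate 2. Plin2, Lpl, Lipa and Cd36 vary little between plates, while Cidec is highest on plate 1 of the female at 107.2 CPM and Fabp1 spans 0.953 to 8.29 CPM.

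Cycling cells, those with at least 5 thinned reads of at least 4 of 10 proliferation genes such as Mki67 and Top2a, numbered 24 in Mac III of the female and 30 in the male. Of the 10 members, 7 were lower in cycling cells in both animals, as were 29.8% of the 15600 genes, and these 7 included the 6 common members. Plin2 had 1022 CPM in cycling against 1874 in other cells of the female and 1359 against 2097 in the male. Lpl had 1960 against 2784 and 1741 against 2548 CPM, Fabp5 550 against 958 and 897 against 1251, and Lipa 745 against 1088 and 795 against 1110. Cd36 had 545 against 1035 and 925 against 1084 CPM, and Abcg1 1304 against 1873 and 2266 against 2534. Fabp4, carried by few cells, had 3.67 against 80.8 and 24.2 against 42.4 CPM in the summed cells. As a mean over single cells it had 18.1 against 77.2 and 22.5 against 45.01 CPM, with a median of 0 in both states. Fabp1, Cidec and Abca1 went opposite ways in the animals: Cidec had 52.9 against 82.6 CPM in the female and 54.8 against 27.6 in the male. Cells of 1 animal are not replicates, so no test was made.

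**Figure D5:**
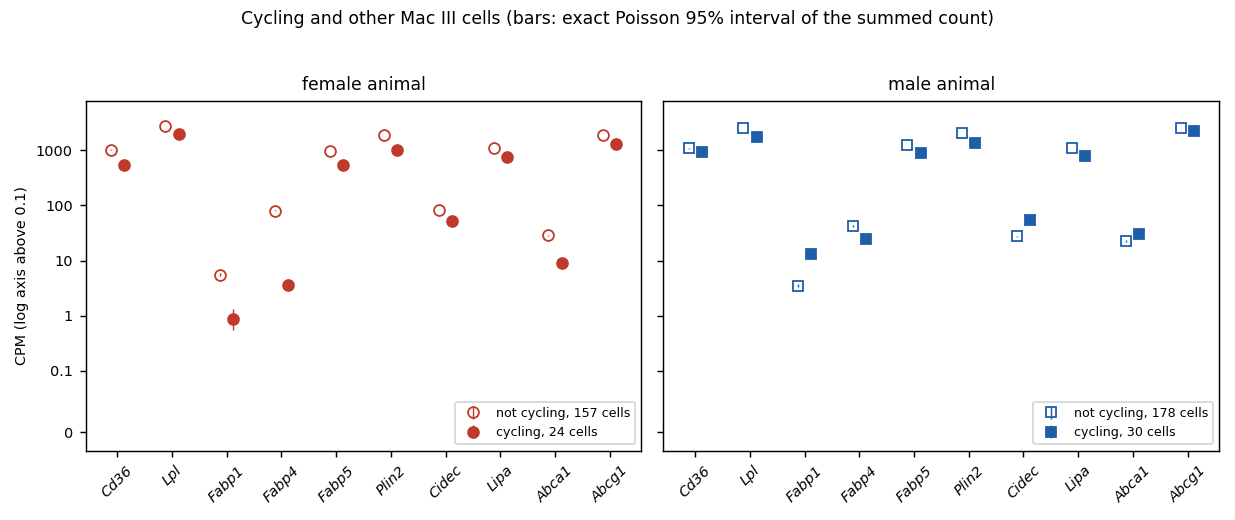
Level of each gene in CPM (y axis, logarithmic above 0.1) in cycling (filled) and other (open) Mac III cells of each animal; bars are exact Poisson 95% intervals, mostly smaller than the symbols. Filled symbols lie below open ones for 7 genes in both animals, where 29.8% of all genes tested were lower, as for Plin2 at 1022 against 1874 CPM in the female.

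A further 81 genes of the pathway were read from the same fits, in lists chosen with earlier results known. In Mac III against Mac V, 1 of the 78 tested passed edgeR's quasi-likelihood test: Bhlhe41, a repressor known in alveolar macrophage identity, with 453 and 628 CPM in Mac III against 0.872 and 1.24 in Mac V, a log2 fold change of 8.95 ± 1.67 and an adjusted p of 0.0132. Fits without a library of Mac III or Mac V leave 1 library of that subtype, whose spread is taken from the other subtypes. They called 0.0965% to 0.138% of genes, and Bhlhe41 in none. In the other 3 comparisons 0 of 78 passed. With only Mac III and Mac IV in the fit, where 5.26% of genes were called higher and 6.70% lower, 8 of 11 genes of the PPAR gamma and GM-CSF list were called higher in Mac III and 0 lower, 4 of 12 of the lipolysis list and 4 of 9 of the fatty acid oxidation list higher and 0 lower, and 0 of 11 of the cholesterol efflux list higher and 4 lower. The lists' median log2 fold changes in the fit of all subtypes were 2.02, 0.38, 1.26 and -0.15, against 0.00 over all genes. In the same fit of the pair, 3 of 12 genes of the lipid uptake list were called higher and 1 lower, 1 of 14 of the droplet storage list higher and 0 lower, and 2 of 9 of the cholesterol synthesis list higher and 0 lower, with median log2 fold changes of 1.00, 1.64 and 1.82 in the fit of all subtypes. With only Mac III and Mac V in the fit, 3.99% of genes were called higher and 5.25% lower. There, 5 of 11 of the PPAR gamma and GM-CSF list were higher and 0 lower, and 0 of 11 of the efflux list higher and 3 lower. Of the cholesterol synthesis list 3 of 9 were higher, of fatty acid oxidation 2 of 9 and of lipolysis 2 of 12, with 0 lower. Lipid uptake had 1 of 11 higher and 0 lower, and droplet storage 1 of 14 higher and 1 lower. With only Mac III and Mac II in the fit, 0.334% of genes were called higher and 0.599% lower. The PPAR gamma and GM-CSF list and the efflux list had 0 of 11 higher, and 0 and 1 lower. Of the lipolysis list, 1 of 12 was called higher and 0 lower, and the remaining lists had 0 called.

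Some of these genes, chosen after their values were seen, show where the classes differ. Pparg itself had 209.5 and 160.3 CPM in Mac III, 45.5 and 82.9 in Mac II, 63.1 and 8.53 in Mac IV and 67.9 and 69.5 in Mac V. Mgll, the lipase of the last step of triglyceride breakdown, had 253.1 and 346.8 CPM in Mac III and 39.2 and 38.9 in Mac II. It had 28.8 and 39.9 CPM in Mac IV and at most 0.0598 in Mac V. Olr1, a receptor for oxidised lipoprotein, had 370.7 and 458 CPM in Mac III and 114.6 and 203.7 in Mac II. It had 15.7 and 7.70 CPM in Mac IV and 8.99 and 7.73 in Mac V. Apoe, the apolipoprotein that accepts exported cholesterol, was lowest in Mac III of these 4 classes: it had 18514 and 23784 CPM in Mac IV, 6530 and 6543 in Mac II, 1980 and 2004 in Mac V, and 152.6 and 57.4 in Mac III.

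For 9 of the members, the genes with the most similar profile were sought among 8315 genes, by Pearson's r of log2(CPM + 1) over the 30 summed libraries of 15 subtypes. Libraries of an animal share plates and libraries differ in depth, so r is a description. Cidec was most like Ear1 (0.97) and Kazald1 (0.96), Fabp1 most like Ear6 (1.00) and Slc39a2 (0.98), and Lpl most like Mrc1 (0.87) and Ms4a6d (0.86). Fabp1 had 0 reads in 13 of the 15 subtypes, so its r rests on the Mac III libraries. Any gene nearly confined to Mac III gives a high r with it. Lipa was most like Dpep2 (0.83) and Il18 (0.82), Abca1 most like Mtus1 (0.82) and Tlr7 (0.79), and Abcg1 most like Ftl1 (0.81), and its pseudogene Ftl1-ps1 (0.80), near-identical copies whose split of reads is uncertain. Plin2 was most like Naip6 (0.79) and Lgals3 (0.78), Cd36 most like Tnni2 (0.80) and Lrrk2 (0.77), and Fabp4 most like Sh3bgrl2 (0.77). Among the members themselves r ran from 0.20 for Fabp5 with Cd36 to 0.77 for Lpl with Lipa.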

How the data were processed

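Per the labels' protocols, cells were sorted into plates and libraries made with Tn5 transposase. The submitters' processing notes name STAR 2.5.2b, HTSeq 0.10 and the build GRCh38, a human build although the samples are mouse, so no coordinates are attached to counts. The authors deposited whole-number read counts per gene and cell, with 16753 to 7560179 reads per cell (median 1100966). No molecular identifiers are named, so intervals cover counting error only.

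For every labelled subtype with at least 5 cells per animal, the cells' counts were added up by animal, which gave 30 libraries of 15 subtypes. CPM uses the library total. edgeR 4.0.16 (R 4.3.3) was run with TMM factors, filterByExpr and 1 coefficient per subtype, and DESeq2 1.42.0 as an alternative. SEs were derived from the quasi-likelihood F statistic. On data simulated for Mac III against Mac IV, with 15110 genes in the fit, edgeR called 1 of 50 genes changed 4-fold, 3 of 50 changed 8-fold, 31 of 50 changed 32-fold, 47 of 50 changed 128-fold and 0 of 14910 unchanged genes. The simulated counts were drawn from edgeR's own fitted model, so these numbers hold only for counts that follow it. Changes were placed only in genes above a set level in Mac III, which Fabp1 did not reach. Libraries of the same animal could be linked, but little link was seen. Deviations from the subtype means of the same animal correlated at -0.060 to 0.076 over all pairs of subtypes, with a median of 0.025. Where a group had 0 reads, the fold is a bound against 3 reads over the group, which does not cover the sampling of cells. Thinning left out 5 cells under 100000 reads. No doublet caller was run.

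The members and lists were chosen with earlier results of these data known. Named genes are the members. From the pathway lists, up to 3 per direction were named among those called, alike in both animals, at a mean of 50 CPM or more in the higher subtype. For likeness, up to 2 per member were named, at 50 CPM or more in a subtype. The likeness of Fabp5 and the summed interstitial macrophage markers are not reported here. Genes named after their values were seen are marked. Nothing says whether the labels for sex mark more than 1 animal each. The p-values measure the spread between the summed libraries of these 2 animals, shared over the subtypes in the fit. That spread also holds the sampling of cells and the sequencing runs.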

Additional observations from a re-analysis of the deposited data

Results flagged for a closer look

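Abca1 differed between Mac III and Mac V in opposite directions in the animals. On the log2(CPM + 1) scale it was lower in Mac III of the female, at -0.71, and higher in Mac III of the male, at 1.04. The levels were 26.5 and 23.8 CPM in Mac III and 43.99 and 11.03 CPM in Mac V, and 1 of 45 cells held 56.7% of the Abca1 reads of Mac V in the male. With 1 animal per sex the difference between the animals was not tested.

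The single Mac I cell, from the male and left out of the comparisons, had reads of several members above the limit that a count of 0 allows, 1.23 CPM. Abcg1 stood at 1532 CPM, Plin2 at 180.7, Fabp5 at 174.6 and Lipa at 32.8 CPM. Lpl had 2 reads, and Cd36, Fabp1, Fabp4, Cidec and Abca1 had 0.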

How the results depend on the processing

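Of the members' log2 fold changes over all alternatives, 466 kept direction and side of the threshold, 20 passed the threshold only under the alternative, and 6 changed direction, none of them called. Abca1 in Mac III against Mac V, -0.19 as reported, was 0.10 where every cell was given an equal total, and ran from -0.84 to 1.20 without a library, the latter without Mac V of the female. Plin2 in Mac IV against Mac V, 0.13 as reported, was -0.070 in the shared sequencing run. Fabp4 in Mac IV against Mac V, 0.52 in the fit of all subtypes, was -0.28 with equal totals, and -7.39 to 9.14 without a library. It was -7.39 without Mac IV of the male, -0.41 without Mac V of the female and 9.14 without Mac V of the male. The cause was not tested.

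The share of genes called was 0.0256% in Mac III against Mac II, 0.263% against Mac IV, 0.442% against Mac V and 0.167% in Mac IV against Mac V. In DESeq2 it was 2.77%, 3.21%, 6.21% and 6.14%, and with only the compared pair 0.933%, 11.96%, 9.23% and 4.37%. In the shared run it was 0.0599% for Mac III against Mac II and 0.339% for Mac IV against Mac V. With the animal as a replicate block it was 0.0577%, 0.276%, 0.506% and 0.218%, and the block changed the call of 0 members. Leaving out a library, where the lone library left is assumed to vary like the other subtypes, gave 0% to 0.00603%, 0.00603% to 0.103%, 0.0965% to 0.138% and 0% to 0.0423%, so each library of a compared pair, when left out, lowered the share by more than 1.5 times. Members called, 0 in each comparison, were 1, 1, 2 and 0 in DESeq2, 0, 6, 7 and 2 with the pair alone, and 1 (Cd36) in Mac III against Mac II in the shared run. Of 40 recomputed Mac III levels, 28 moved by less than the SD of the animals or not at all. Of these 28, 10 came from leaving out cells with endothelial markers. Mac III held 0 such cells, so those 10 levels could not move. The median over single cells moved 8 levels by more than the SD, and the mean over single cells and the shared run 2 each. Of 30 recomputed Mac III shares of positive cells, 20 moved by less than the SD or not at all, and 10 by more. In Mac III of the male the level of Abcg1 correlated with reads per cell at rho 0.30, and in the female at 0.02.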
